A study of Zea mays with 48 samples.

Results

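In maize roots given tunicamycin, 41 of 23753 genes had a lower RNA level at 3 h or 6 h and were back near the lower of 2 baselines from 24 h on. They were chosen from the measured values. A gene's level was the mean of its 3 libraries in CPM (reads of the gene scaled to a common library total), taken as log2(mean CPM + 1). Its reference level, called B here, was the lower of the level at 0 h and the level in a 48 h mock treatment. A gene was taken if its mean was 3 CPM or more in both baselines, if its level at 3 h or 6 h was 1.0 or more below B, and if its level at each of 24 h, 36 h and 48 h was above B minus 0.5. The 12 h group is the only one that played no part in the choice. Everything given here about the fall at 3 h or 6 h and the return from 24 h describes how the genes were picked and is no test of it.

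Roots of seedlings of the inbred line B73, the line behind the maize reference genome, were sampled after 0, 3, 6, 12, 24, 36 and 48 h with tunicamycin at 5 µg/ml. Before that the seedlings had been kept for 7 days at 23 °C in glass bottles. A mock treatment was sampled at 48 h only, so at 3 h and 6 h the effects of the agent, of handling and of the hour of harvest cannot be told apart. RNA-seq of whole roots gave 8 groups of 3 libraries, each described as a biological replicate and here called I, II and III. The labels conflict: of the 47 lane samples used, 38 have a title with another time than their library name, and 6 have a title with another treatment, namely 3 mock lanes titled as treated and 3 lanes of the 12 h libraries titled as mock. Only 6 titles match the library name in both, and every group here rests on the library names. The mock lanes of 1 number carry different indexes, so they may not be 1 library. Reads assigned to genes ranged from 7701856 to 38577551 per library, with a median of 24966395.

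Tunicamycin stops cells from building the sugar chain that is attached to asparagines of new secretory proteins. Unfolded proteins then gather in the endoplasmic reticulum, and cells answer with the unfolded protein response. In plants its sensor IRE1 splices the mRNA of the transcription factor bZIP60, and in Arabidopsis and other species IRE1 is also known to cut mRNAs at the endoplasmic reticulum membrane, so that messages for secreted proteins can become less abundant early in the stress. This is background and was not measured here. The genes carry Zm00001d identifiers, and of the 23753 identifiers 0 matched the reference gene table, so no name or function is given to any of them. For the same reason the tissue was not checked against root marker genes. In bulk RNA, fewer cells of a type and less RNA per cell cannot be told apart.

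In 7 of the 8 groups, libraries I and II differed less from each other than either did from library III, by the median difference over genes on the log2 scale, though by more than sampling noise. At 24 h library I was nearer to library III, with a median difference of 0.294, than to library II, with 0.394. On the first principal component of all genes, which held 28.99% of the variance, library III of the mock lay at 43.0, whereas mock libraries I and II lay at -15.8 and -16.6. The 6 h libraries lay at 35.8, 35.5 and 25.3 and the 48 h libraries at 22.5, 33.3 and 37.6. Library III of the mock was therefore on the side of the treated 6 h and 48 h libraries. The 12 h libraries split in the same way, at -40.6, -34.5 and 11.9. Values without library III are given beside the results they change most.

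The early fall was met by 181 of the 19308 genes that passed the level minimum, which is 0.937%. Of these 181 genes, 140 were at B minus 0.5 or less at 24 h, 36 h or 48 h, and the other 41 form the set described here. The fall was seen at 6 h alone in 25 genes, at 3 h alone in 13 genes, and at both times in 3 genes. In most of the set the fall was therefore seen at the later of the early times. B came from the mock in 38 genes and from 0 h in 3 genes. Without library III of the mock the same rule picked 38 genes, of which 14 were among the 41. Of the 27 genes lost, 20 missed the return at a late time and 7 no longer met the early fall. Without library I of the mock it picked 34 genes, of which 24 were among the 41. Without library II of the mock it picked 30, of which 18 were among the 41. The median of 3 libraries in place of the mean gave 85 genes, 13 of them among the 41. The membership thus changed whichever of the mock libraries was left out, and most without library III. Leaving out library I or II also gives library III more weight in the mock mean. These counts therefore cannot tell the part of each mock library apart. Without library III of the 3 h group the rule picked 75 genes, and without library III of the 6 h group it picked 80.

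**Figure D1:**
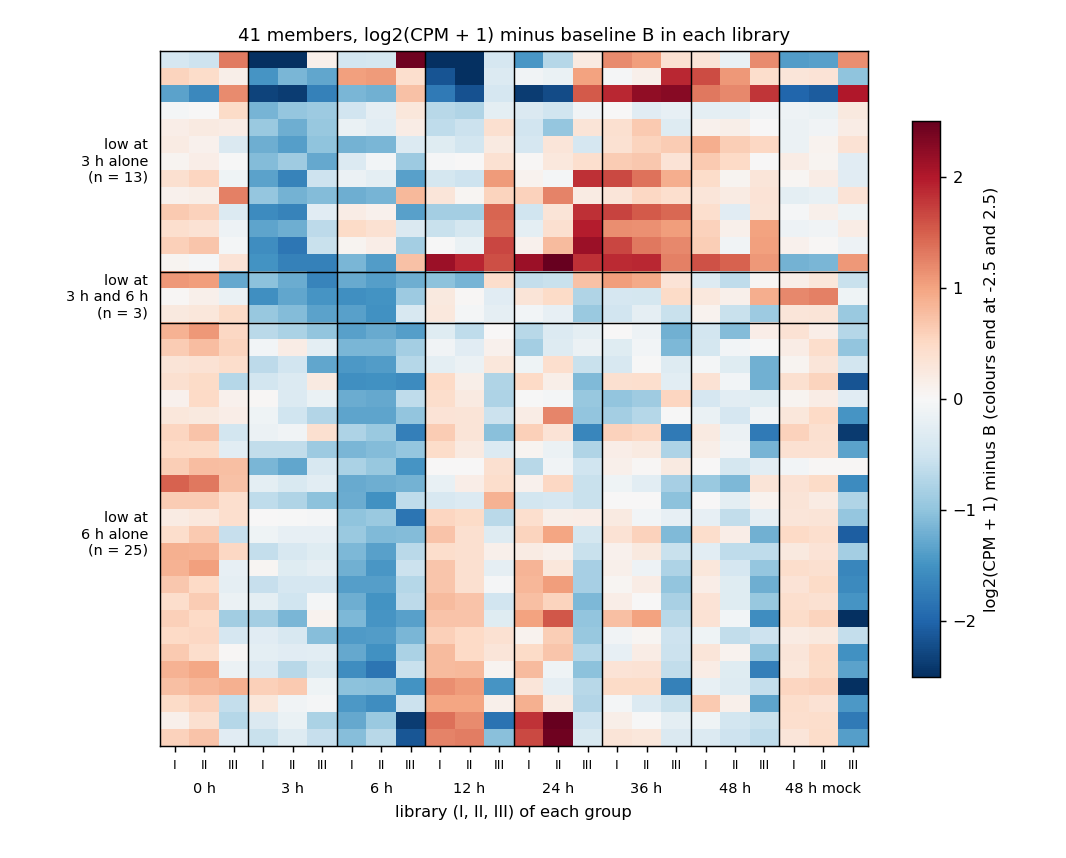
Level of each of the 41 genes (1 line per gene) in each of the 24 libraries (columns, by group and library), as log2(CPM + 1) minus B on a colour scale. The block of 25 genes low at 6 h alone, the block of 13 genes low at 3 h alone and the 3 genes low at both times are apart, and library III of the mock stands out in the 6 h block.

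The falls ran from just past the threshold to a level of -2.09 relative to B. The gene nearest to it on the inside was 1.01 below B, at -1.01, and the nearest outside was at -0.997. At the late times the lowest value inside was -0.495 and the nearest outside was -0.512. Of the 41 genes, 19 lay within 0.1 of the early threshold and 12 within 0.1 of the late one. With an early fall of 1.5 required in place of 1.0, 3 genes were left.

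In the 13 genes low at 3 h alone, the median level relative to B was -1.09 at 3 h and -0.19 at 6 h. At 12 h it was 0.14 and at 24 h 0.36, and it reached 0.95 at 36 h before standing at 0.56 at 48 h. The median was thus above B in each group from 12 h on, and 6 of the 13 were more than 1 above B at 36 h. In the 25 genes low at 6 h alone the order was different. Their median went from -0.42 at 3 h to -1.14 at 6 h and 0.33 at 12 h. Later medians were 0.07 at 24 h, then -0.15 at 36 h, and -0.32 at the last time, 48 h. At 48 h, 24 of these 25 genes were below B, against 1 of the 13 genes low at 3 h alone. The 3 genes low at both times had medians of -1.29 at 3 h and -1.28 at 6 h, and their median was 0.01 by 12 h. Over all genes above the level minimum the median relative to B was 0.07 at 3 h, then 0.12 at 6 h, and 0.13 after 12 h.

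The return was a return to the lower of the baselines, not to the level at 0 h. At 48 h the median of the 41 genes was 0.49 below 0 h on the log2 scale, at -0.49, and 32 of the 41 were lower than at 0 h. The gap was 0.5 or more in 20 genes. The mock was lower than 0 h in 38 genes, with a median difference of -0.35. For the 19308 genes above the level minimum, the median difference from 0 h was 0.07 at 48 h and 0.05 in the mock. With B computed without library III of the mock, the median of the 41 genes at 48 h was -0.43, whereas with all libraries it was -0.20.

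The libraries behind these means did not move together. In the 25 genes low at 6 h alone, the median relative to B was 0.35 in library I of the mock, 0.40 in library II and -1.43 in library III. Library III of the mock was thus as low as the 6 h libraries, whose medians were -1.24, -1.33 and -0.98. It lay below both other mock libraries in 24 of the 25 genes, against 40.9% of the genes above the level minimum. It lay lower than their mean by 1 or more in 20 of the 25, against 3.47%. In 16 of the 25 genes it was at or below the mean of the 6 h group. Reads of its lanes taken alone gave medians over all 41 genes of -0.895 and -0.835, so both lanes were low. In the mock-treated roots, then, 1 of 3 libraries had these genes at the level that was called a fall at 6 h. The part of this library in the fall and in the return was not tested further than by leaving it out.

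**Figure D2:**
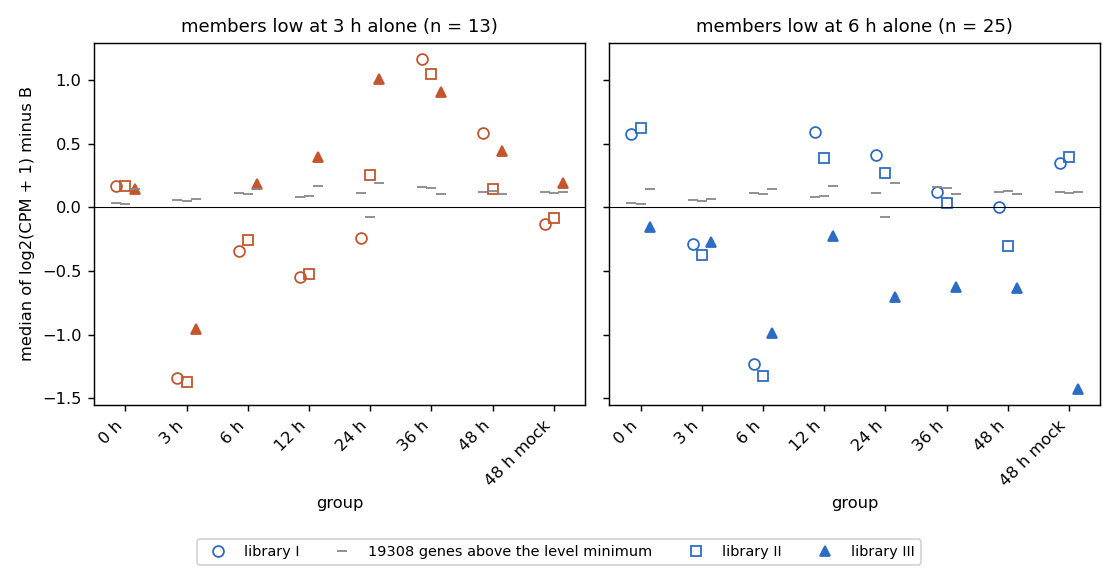
Median over genes of log2(CPM + 1) minus B in each library, for the 13 genes low at 3 h alone (left) and the 25 genes low at 6 h alone (right). Circles, squares and triangles are libraries I, II and III, and grey dashes give the median over the 19308 genes above the level minimum. In the right panel library III of the mock, at -1.43, is as low as the 6 h libraries.

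Library III was also the lower one in other groups for the genes low at 6 h alone. It lay below both other libraries in 21 of the 25 genes at each of 0 h, 24 h and 36 h, in 19 genes at 12 h and in 16 genes at 48 h. At 6 h it lay above both in 15 of the 25, against 41.8% of the genes above the level minimum. For this class the gap between 0 h and 6 h was therefore smaller in library III, whose medians were -0.15 and -0.98, than in library I, whose medians were 0.58 and -1.24. In the 13 genes low at 3 h alone the mock libraries had medians of -0.13, -0.08 and 0.19, and libraries I or II were at B minus 1 or less in 3 of the 13 genes. The 12 h group was split more widely. Its medians were -0.55 in library I, -0.52 in library II and 0.40 in library III, and library III was above both others in 12 of the 13 genes, against 52.1% of the genes above the level minimum. In 10 of the 13 genes both library I and library II were below B at 12 h, and in 2 genes, Zm00001d044156 among them, both were above it.

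The 4 genes named here were taken by a fixed rule from the 17 with 20 CPM or more at both baselines. Of these 17, 6 had all 3 libraries of the early time below all 6 baseline libraries. Zm00001d044156, a gene low at 3 h alone, had 47.7, 44.6 and 58.0 CPM at 0 h (libraries I, II and III in this order, here and for the genes that follow), and 15.5, 13.4 and 13.4 CPM at 3 h. At 6 h it had 20.1, 16.7 and 76.3 CPM, and in the mock 19.4, 20.01 and 96.7 CPM. At both of these, libraries I and II were near the 3 h values and library III was above every 0 h library. From 12 h it was high in every library, with 202.9, 172.6 and 139.8 CPM at 12 h and 202.4, 292.1 and 164.0 CPM at 24 h. It then had 168.9, 171.4 and 109.9 CPM at 36 h and 138.5, 127.4 and 97.9 CPM at 48 h, so the 12 h to 48 h libraries did not overlap those of any earlier time or the mock.

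For Zm00001d044156 the log2 difference of 12 h from 6 h was 2.22 ± 0.55 (SE), with an adjusted p = 0.0198 in edgeR's quasi-likelihood test. Against 0 h the difference was 1.78 ± 0.54 with an adjusted p = 0.109, and against the mock it was 1.96 ± 0.54 with an adjusted p = 0.0837, both by edgeR. Without library III of the mock the latter was 3.15 with an adjusted p = 0.00353 in edgeR. Without library I of the mock its adjusted p was 0.238, and without library II of the mock 0.211, both by edgeR. Among the alternatives run, the difference from the mock was called in 5 and not called in 10. The call against the mock thus depended on the libraries and on the settings. The mock also set B for this gene.

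Zm00001d032946, a gene low at 6 h alone, had 79.4, 80.4 and 41.7 CPM at 0 h and 64.4, 66.3 and 36.8 CPM in the mock. At 3 h it had 45.5, 42.0 and 26.1 CPM, and at 6 h 20.4, 20.6 and 24.7 CPM. All 3 libraries at 6 h were below all 6 baseline libraries, and library III was the lowest in both baselines. At 12 h it had 84.5, 79.2 and 72.8 CPM, which was above every 6 h library and within or just over the range at 0 h. It had 59.8, 86.0 and 28.6 CPM at 24 h, 52.8, 57.4 and 38.6 CPM at 36 h and 52.0, 35.9 and 38.8 CPM at 48 h. The rise from 6 h to 12 h was 1.89 ± 0.36 on the log2 scale (SE). This rise was called in edgeR, but the low 6 h libraries had chosen the gene. It is therefore given as a description with no test. Against 0 h the 12 h difference was 0.23 with an adjusted p = 0.818, and against the mock 0.52 with an adjusted p = 0.512, both by edgeR.

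Zm00001d047116, low at 6 h alone, had 110.0, 120.5 and 59.9 CPM at 0 h and 91.4, 101.6 and 27.5 CPM in the mock. It had 49.8, 58.3 and 49.0 CPM at 3 h and 34.4, 45.1 and 15.9 CPM at 6 h. It had 174.3, 179.5 and 34.9 CPM at 12 h, and 234.3, 403.5 and 56.0 CPM at 24 h. Libraries I and II at 12 h and 24 h were above all baseline libraries, while library III was within their range and at 12 h below library II of 6 h. At 36 h it had 92.4, 89.9 and 57.2 CPM, and at 48 h 57.6, 51.3 and 46.9 CPM. The difference of 12 h from 6 h was 2.09 ± 0.64 on the log2 scale (SE). This gene and the next were named because they were called higher in that comparison, so the difference is given as a description with no test.

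Zm00001d042901, low at 6 h alone, had 40.8, 44.0 and 18.98 CPM at 0 h and 39.7, 37.4 and 10.2 CPM in the mock. It had 35.5, 27.5 and 28.5 CPM at 3 h and 10.2, 9.33 and 19.7 CPM at 6 h. Library III of the 6 h group was therefore above library III of both baselines. It had 58.7, 59.0 and 32.1 CPM at 12 h, which was above all 6 h libraries. It had 54.8, 33.9 and 17.1 CPM at 24 h, 28.2, 22.8 and 19.4 CPM at 36 h and 46.2, 32.0 and 11.04 CPM at 48 h. The difference of 12 h from 6 h was 1.97 ± 0.54 on the log2 scale (SE). With libraries I and II summed as 1 sample, the difference of 12 h from 6 h was called in 0 of all 23753 genes, the 4 named ones included.

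**Figure D3:**
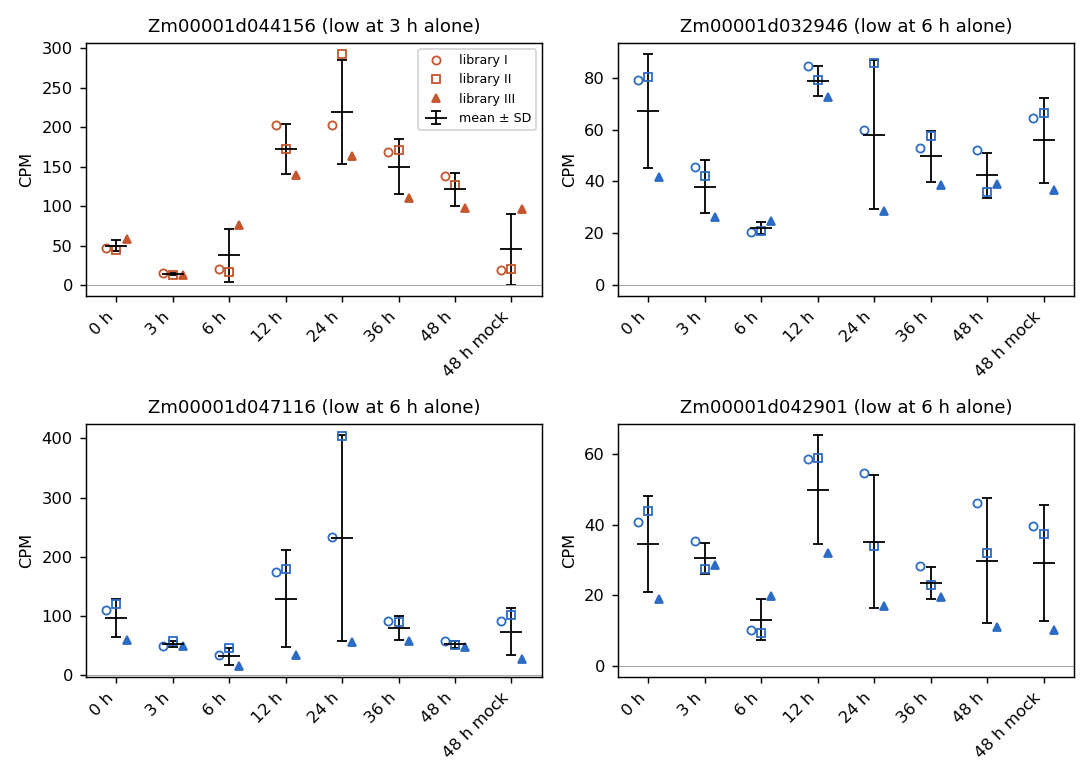
CPM of the 4 named genes in every library by group, with points for libraries I, II and III and bars for the mean ± SD of the 3 libraries, on a linear axis in each panel. Zm00001d044156 is low at 3 h and above all earlier libraries from 12 h, and the other 3 genes are low at 6 h.

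The 12 h group asks how far the genes had come back at a time that did not choose them, although the 0 h, 6 h and mock libraries it is set against did. At 12 h, 37 of the 41 genes were above B minus 0.5, the margin used for the late times, and 31 were above B. Of the 140 genes that fell early and missed the late return, 78 were above B minus 0.5 at 12 h, and their median relative to B was -0.45. The median of the 41 genes was 0.17 and that of all genes above the level minimum 0.13. Of the latter, 98.4% were above B minus 0.5.

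From 6 h to 12 h, 15 of the 41 genes rose and 1 fell in edgeR's quasi-likelihood test, fitted to all 24 libraries with p-values adjusted over all 23753 genes to a threshold of 0.05. Over all genes 6.3% were called higher and 2.97% lower. Those 15 genes comprised 13 of the 25 low at 6 h alone, 1 of the 13 low at 3 h alone and 1 of the 3 low at both times. The median log2 difference was 1.44 over the 41 genes, 1.62 over those low at 6 h alone and 0.59 over those low at 3 h alone, and over all genes it was -0.00. The genes low at 6 h were chosen for low 6 h libraries, so a difference in this direction is partly fixed by the choice. All 3 libraries at 12 h lay above all 3 at 6 h in 25 of the 41 genes, against 16.4% of the genes above the level minimum, and below them in 1, against 20.8%.

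The count of 15 moved with the libraries, and so did the share called over all 23753 genes. It was 4 without 12 h library I (1.44% of all genes), 5 without 12 h library II (2.0%), 4 without 6 h library I (1.68%) and 3 without 6 h library II (1.43%). With libraries I and II of each group summed as 1 sample it was 0, as it was for all genes. The count of 1 lower gene was 0 in each of these 5 fits and 2 without 12 h library III (6.55% of all genes). When library III of every group was left out, an alternative chosen after seeing the data, 30 of the 41 were higher and 5 lower, where 4760 and 4817 of all 23753 genes were.

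Against 0 h, 1 of the 41 genes was called lower at 12 h and 0 were called higher in edgeR, where 0.37% and 0.914% of all genes were. At an unadjusted p below 0.05 edgeR gave 7 lower and 1 higher (6.23% and 8.65% of all genes), and DESeq2 called 2 lower and 0 higher (1.5% and 2.13%). With library III of every group left out, edgeR called 16 lower and 2 higher, against 10.9% and 10.3% of all genes. The median difference from 0 h was -0.13 on the log2 scale, and 14 of the 41 differences were above 0. The gene called lower, low at 3 h alone, was singled out for this call. It had 30.0, 31.3 and 43.4 CPM at 0 h and 18.8, 18.1 and 26.05 CPM at 12 h, which did not overlap, and differed by -0.74 ± 0.18 on the log2 scale (SE), with an adjusted p = 0.0486 in edgeR. This call was lost without any one of library I or II of 0 h or of 12 h, and there were 2 such calls without library III of 12 h.

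Against the mock, 0 of the 41 genes were called lower and 0 higher at 12 h in edgeR, where 0.408% and 0.808% of all genes were. At an unadjusted p below 0.05 edgeR gave 3 lower and 1 higher (6.65% and 8.08% of all genes), and DESeq2 called 0 lower and 1 higher (1.55% and 2.04%). Leaving out library III of every group, edgeR called 10 lower and 5 higher, against 9.04% and 7.05% of all genes. With the library number as a block, although the numbers are not shown to pair the samples, edgeR called 1 lower and 1 higher (1.36% and 1.89% of all genes). Without library III of the 12 h group there were again 1 lower and 1 higher (2.23% and 2.16%), and without library III of the mock 0 lower and 1 higher (0.173% and 0.366%). The median difference from the mock was 0.20 on the log2 scale with all libraries and -0.05 without library III of the mock.

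**Figure D4:**
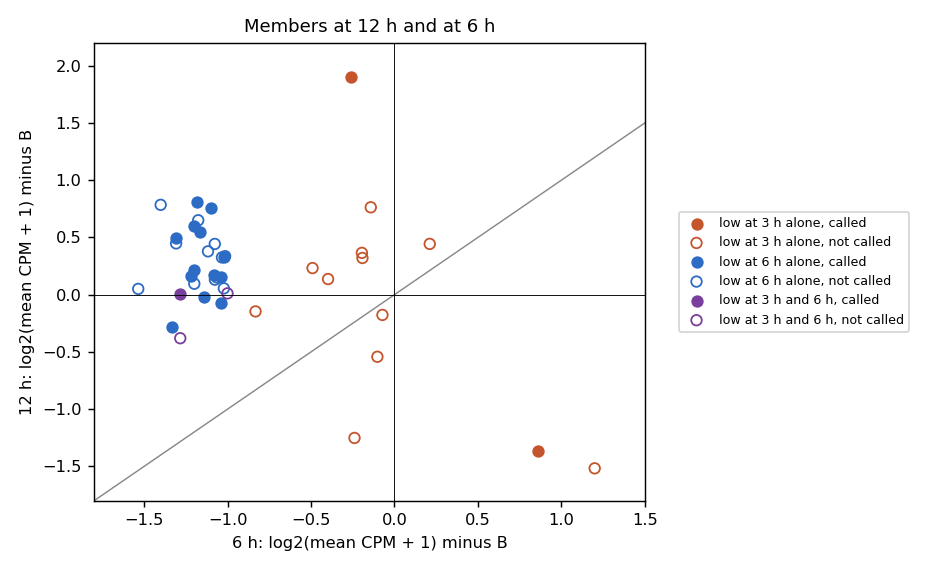
Level at 12 h against level at 6 h for the 41 genes, each as log2(mean CPM + 1) minus B, coloured by the time of the fall. Filled points are the 16 genes called different between 12 h and 6 h, and the diagonal marks equal levels. All 25 genes low at 6 h alone lie above the diagonal, and 5 genes low at 3 h alone lie below it.

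Not every gene came back and stayed. At 12 h, 3 genes low at 3 h alone were again 1 or more below B, and they were singled out for this. The first had 17.5, 16.2 and 12.8 CPM at 0 h, 3.49, 4.69 and 4.06 CPM at 3 h and 24.5, 25.1 and 15.7 CPM at 6 h. At 12 h it had 1.80, 0.89 and 8.94 CPM, below every 6 h library, with a log2 difference of -2.49 ± 0.64 (SE). This difference was called in edgeR, but the gene was picked for its low 12 h level. It is therefore given as a description with no test. At 36 h it had 11.3, 12.8 and 45.6 CPM. This gene was thus low at 3 h, higher at 6 h, low at 12 h and higher again later.

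The second had 56.9, 53.8 and 191.8 CPM at 0 h, 11.8, 11.2 and 84.0 CPM at 3 h, 55.7, 56.3 and 421.7 CPM at 6 h and 12.1, 9.58 and 57.0 CPM at 12 h. In each of these groups library III was several times above the others, and the low-high-low order was the same in all 3 libraries. The third was near the level minimum, with 1.58, 1.12 and 13.8 CPM at 0 h, 0.31, 0.25 and 1.02 CPM at 3 h and 0.90, 0.45 and 3.85 CPM at 12 h. Its mock libraries had 0.64, 0.55 and 25.1 CPM and its 24 h libraries 0.26, 0.39 and 17.9 CPM, so it passed the level minimum and the return at 24 h through library III alone. At 36 h it had 23.0, 29.4 and 30.5 CPM, above all of its 0 h libraries.

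At the late times, which were used to choose the genes, 9 of the 41 were more than 1 above B at 24 h, 36 h or 48 h, and 7 of these 9 were low at 3 h alone. Another 9 genes stayed below B at all 3 late times. Calls against 0 h by edgeR are given as a description only. At 24 h 4 were lower and 1 higher (8.17% and 10% of all genes). At 36 h 3 were lower and 0 higher (4.49% and 4.19%), and at 48 h 5 were lower and 0 higher (11.9% and 12.1%). At an unadjusted p below 0.05 edgeR gave 7 lower and 3 higher at 24 h (15.1% and 18.1%), 7 lower and 3 higher at 36 h (13.8% and 14.8%), and 9 lower and 2 higher at 48 h (18.6% and 20.3%). At 48 h against the mock 0 were lower and 0 higher (0.135% and 0.337%), with 0 and 2 at an unadjusted p below 0.05 (4.61% and 4.15%). In the mock against 0 h 0 were lower and 0 higher (1.14% and 0.922%), with 5 and 1 at an unadjusted p below 0.05 (10.1% and 11.3%), all by edgeR. At the early times against 0 h, 18 of the 41 were called lower at 3 h (7.41% of all genes) and 23 at 6 h (13.8%). The 18 include 6 genes low at 6 h alone, and the 23 include 1 gene low at 3 h alone. Against the mock 4 were called lower at 3 h (0.147%) and 2 at 6 h (0.219%). All 3 libraries were below all 6 baseline libraries in 14 of the 41 genes at 3 h, against 10.9% of the genes above the level minimum, and in 6 at 6 h, against 5.72%.

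A property that the rule did not use was gene length, as recovered from the deposited values. Over all genes this length ran up to 128402 bp. The sources used here do not say whether it includes introns, so it may not be the length of the mRNA. The 41 genes had a median length of 1555 bp, from 348 to 15672 bp, and the 19308 genes above the level minimum had a median of 3948 bp. Of the 41, 36 were shorter than that median, which is 87.8%. Of the 140 genes that fell early and missed the return, 125 were shorter, which is 89.3%, with a median of 1530 bp. Both fallen sets were therefore short, and their medians lay close together. Among the named genes, Zm00001d047116 was 381 bp, Zm00001d032946 849 bp, Zm00001d044156 2746 bp and Zm00001d042901 2792 bp.

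Length also went with the difference between some of the groups over all genes. Across the 19308 genes the Spearman correlation of length with the log2 difference was 0.33 for 6 h against 0 h, 0.27 for 3 h against 0 h and -0.25 for 12 h against 6 h. For the mock against 0 h, where no tunicamycin was given, it was 0.23. It was near 0 for 12 h against the mock, at -0.03, and for 24 h against 0 h, at -0.06. At the other times against 0 h it was 0.23 at 12 h, 0.29 at 36 h and 0.29 at 48 h. Against the mock it was 0.15 at 3 h, 0.34 at 6 h and 0.28 at 48 h. Genes are not independent replicates, and these values only describe the libraries. For 4068 genes between 849 and 2375 bp, the middle range of the 41, the median difference of 6 h from 0 h was -0.25, against -1.61 in the 41 genes. From 6 h to 12 h it was 0.17, against 1.44. The medians of genes of like length therefore had the same sign and were smaller. The 41 genes were chosen for low levels at 3 h or 6 h and the 4068 were not. The larger differences of the 41 genes were thus partly fixed by the choice, by an amount that was not measured. The sizes therefore do not measure the part of length. The part of length in the fall was not tested.

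**Figure D5:**
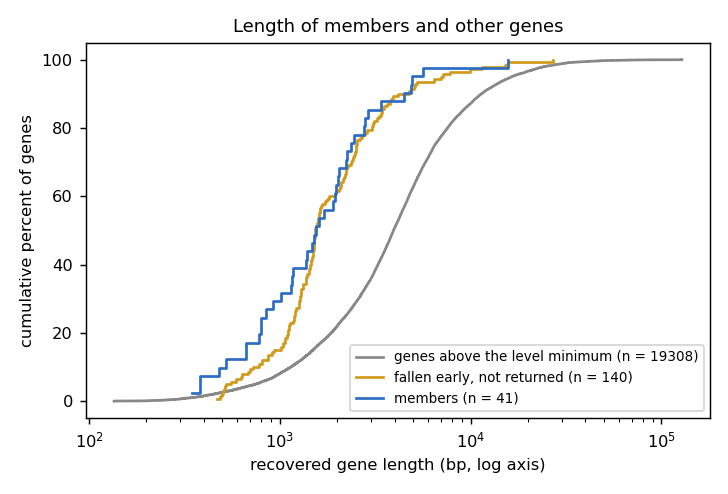
Cumulative share of genes by length in bp, on a log axis, for the 41 genes, the 140 genes that fell early and missed the return, and the 19308 genes above the level minimum. Both fallen sets lie to the left of all genes, with medians of 1555 and 1530 bp against 3948 bp.

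At 0 h the 41 genes had a median of 16.6 CPM, from 5.51 to 284.4 CPM, against 22.9 CPM for all genes above the level minimum. Per recovered length they were higher, with a median of 10.3 CPM per kb against 5.86 CPM per kb. As that length may include introns, this is not shown to be a level per length of mRNA. No library had 0 reads in any of the 41, and the fewest reads of one of them in a library was 3.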

How the data were processed

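The deposited count table held whole-number read counts per gene, which the authors had summed over the lanes of each library, except 24 h library II, whose 7701856 reads equal its lane 6 alone. Per the submitters' processing notes, STAR, featureCounts and edgeR were used. The sources used here do not give settings, build or strand handling. A second table by the authors held RPKM values per lane. Its steps gave whole lane reads for 100% of values (within 0.01 reads) and a whole length for 100% of genes (within 0.05 bp), and the summed lanes differed from the deposited counts by 0. In all, 47 of 48 lane samples were used. Lane 7 of 24 h library II was not analysed here, and 0 columns of other samples were present.

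The 41 genes and the tests were chosen with earlier results of these data known. All 24 libraries in 8 groups were fitted with edgeR 4.0.16 (R 4.3.3, TMM scaling, quasi-likelihood test, Benjamini-Hochberg over 23753 genes, adjusted p threshold 0.05). The low-count filter removed 0 genes. DESeq2 1.42.0 was an alternative. Log2(mean CPM + 1) values used Python 3.11.15, pandas 2.3.3 and numpy 2.4.6. The scripts were tested on simulated data. Totals of 7701856 to 38577551 reads per library set the counting precision, and p-values measure the spread between libraries.

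The named genes were chosen by rule among genes of 20 CPM or more at both baselines. For "fell", the rule took the largest early fall among those with all libraries of the early time below all 6 baseline libraries. For "rose", it took the largest 12 h over 6 h difference among those called and not already named under "fell". Each rule names 2 genes. Same-numbered libraries of 12 h and the mock deviated together (correlations 0.333, 0.251 and 0.359). Libraries I and II also correlated across numbers there (0.313 and 0.201), so these values do not show a pairing by number. Same-numbered correlations were 0.188, 0.0833 and 0.185 for 12 h and 0 h, and 0.0400, 0.0776 and 0.0603 for 12 h and 6 h. The labels give no source for a shared number, so the block is given as an alternative only.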

Additional observations from a re-analysis of the deposited data

How the results depend on the processing

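The number of genes the rule picks was 41. It was 38 with TMM scaling, 37 with the return also asked at 12 h and 37 from lane 7 alone, and it moved to 85 with the median of 3 libraries, 27 with a minimum of 10 CPM, 3 with a fall of 1.5 and 131 from lane 6 alone. Among the 41 genes, 35 were also picked with TMM scaling, 23 from lane 7 alone and 30 from lane 6 alone. Leaving out 1 library gave 29 to 80 genes. Leaving out library III of every group, an alternative chosen after seeing the data, gave 118, of which 20 were among the 41. For 12 h against 6 h, the higher count (15) was 27 with DESeq2 (9.59% of all genes) and 24 with the replicate block (9.78%). It was 0 with libraries I and II summed (0 of all genes), 25 from lane 6 (10.7%) and 8 from lane 7 (1.93%). It was 30 without every library III (4760 of 23753 genes) and 3 to 21 without 1 library (1.43% to 9.57%). The lower count (1) was 2 with DESeq2 (5.94% of all genes) and 0 with only the 2 groups in the model (2.06%). It was 3 with the replicate block (7.06%), 0 with libraries I and II summed (0%) and 5 without every library III (20.3%). Without 1 library it was 0 to 2 (0.261% to 6.55%). For 12 h against 0 h, the lower count (1) was 2 with DESeq2 (1.5% of all genes) and 2 with the replicate block (0.914%). It was 0 with only the 2 groups (0.194%), 0 with libraries I and II summed (0.00421%) and 0 from lane 6 (0.328%). It was 16 without every library III (10.9%) and 0 to 2 without 1 library (0.0716% to 1.23%). The higher count (0) was 1 with only the 2 groups (0.379%) and 2 without every library III (10.3%). Without 1 library it stayed at 0 (0.396% to 2.94%). For 12 h against the mock, the lower count (0) was 1 with the replicate block (1.36%) and 10 without every library III (9.04%). Without 1 library it was 0 to 1 (0.0589% to 2.23%). The higher count (0) was 1 with DESeq2 (2.04%), 1 with the replicate block (1.89%) and 5 without every library III (7.05%). Without 1 library it was 0 to 1 (0.333% to 2.16%). With libraries I and II summed fewer samples enter; the cause of the other moves was not tested. The median difference of 12 h from 6 h was above 0 under each alternative run, from 1.31 to 1.69. The 41 genes were held fixed in these runs, and the 6 h libraries had helped to choose them. A median above 0 was therefore partly fixed by the choice and is no test of the rise. Of 15 alternatives each, the 12 h against 6 h call was lost in 1 for Zm00001d032946, 6 for Zm00001d042901, 6 for Zm00001d044156 and 8 for Zm00001d047116. The block moved counts in each of the comparisons, and the numbers are not shown to pair the samples.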
